A study of Rattus norvegicus with 4 samples.

Results

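The TGF-beta and activin system was followed through 10 of the 23999 genes measured in cells of rat skin wounds. The genes were taken by symbol, from a list drawn up with earlier results of these data known. They were the ligand genes Tgfb1, Tgfb2, Tgfb3 and Inhba, the receptor genes Tgfbr1 and Tgfbr2, the ligand activator Thbs1, the inhibitors Fst and Smad7, and the target gene Ccn2. Each symbol matched exactly 1 row of the count matrices. Skin of a rat wound healing model was taken on day 4, dissociated and profiled with 10x Genomics droplets, which tag each RNA molecule with a unique molecular identifier (UMI). Wounds of the injected group received purified migrasomes, the membrane vesicles that form on the retraction fibres behind a migrating cell, and wounds of the uninjected group received no injection at all. Each group had 2 libraries, and no source used here gives the strain, sex or age of the rats. No library received a carrier alone, so the effect of the needle and fluid and that of migrasomes cannot be told apart. Nothing in the labels ties the libraries to separate animals, so the p-values below rest on differences among 4 libraries that may be technical replicates.

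TGF-beta is secreted in a latent form that is held in the matrix by latent TGF-beta binding proteins and released by integrins, proteases or thrombospondin 1, the product of Thbs1. The active ligand binds the receptor encoded by Tgfbr2, which phosphorylates the partner receptor encoded by Tgfbr1, and this in turn phosphorylates Smad2 and Smad3, which join Smad4 and enter the nucleus. Activin A, a dimer of Inhba chains, reaches the same Smads through its own receptors and is neutralised by follistatin, the product of Fst. Smad7 is induced by the pathway and blocks the type I receptor, and Ccn2 encodes a matricellular protein that TGF-beta induces in fibroblasts. In skin wounds these ligands are known for driving granulation tissue and matrix deposition and for acting on keratinocyte migration and proliferation.

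The 250 bases before the transcription start of Ccn2 are shown because Ccn2 had the smallest p-value among the 10 genes, in endothelial-like cells. They lie at chr1:22624615-22624864 on the minus strand of GRCr8 and were taken from RefSeq, while the build used for the count matrices is not given in the sources used here. Capitals mark CAGAC, a Smad box, and GGAATG, the core motif of TEAD factors, which were searched on both strands and do not overlap here.
Ccn2: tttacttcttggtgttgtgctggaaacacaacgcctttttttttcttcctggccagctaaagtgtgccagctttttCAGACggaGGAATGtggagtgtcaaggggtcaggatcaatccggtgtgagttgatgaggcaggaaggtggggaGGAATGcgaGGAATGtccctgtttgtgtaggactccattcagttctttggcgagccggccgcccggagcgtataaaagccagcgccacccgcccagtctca
The Smad box began 174 bases before the start, and the TEAD motifs began 166, 101 and 92 bases before it. Over windows of 300 bases, from 250 before to 50 after the start, RefSeq promoters held CAGAC in 50.1% and GGAATG in 14.2% of 33469 cases. Of the 9 genes with such a window, Ccn2 and Inhba held CAGAC, and Ccn2 and Thbs1 held GGAATG. A match is a string of letters and not a binding site.

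Between 6071 and 9852 cells were kept per library, with a median of 1726 to 7783 UMIs per cell. Clusters were named from marker genes, and 6 classes had at least 50 cells in every library, namely keratinocyte-like and fibroblast-like cells, and, among leukocytes, dendritic-like, T and NK-like, macrophage-like and neutrophil-like cells. The skin label was met by keratinocyte, fibroblast and endothelial markers, each of which defined a class. Pecam1, Col1a2, Col6a3, Krt6a, Dct and Ttn were not analysed here. Uninjected 1 stood apart, with 17.1% of its UMIs from ribosomal protein genes, against 7.16% to 8.60% in the other libraries, and with only 62 macrophage-like cells, against 383 to 699. Pairs of libraries shared between 15 and 29 cell barcodes.

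Fst came almost wholly from 1 class, while Inhba, whose product follistatin binds as part of activin, came from that class and from fibroblast-like cells. Keratinocyte-like cells held 95.2% and 97.1% of all Fst UMIs in the injected libraries and 97.3% and 96.9% in the uninjected ones. Inhba UMIs lay mostly in 2 classes, with 49.9% and 43.2% in fibroblast-like cells of the injected libraries and 19.1% and 41.4% in those of the uninjected libraries. Keratinocyte-like cells held most of the rest, and more than fibroblast-like cells in 3 of the 4 libraries, with 42.8% and 54.6% in injected wounds and 72.5% and 52.5% in uninjected ones. These shares depend on how many cells of each class a library held, and fewer cells of a class and less RNA per cell cannot be told apart in them. Per class, levels are given as CPM, the UMIs of a gene relative to all summed UMIs of that class and library, scaled by TMM.

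**Figure D1:**
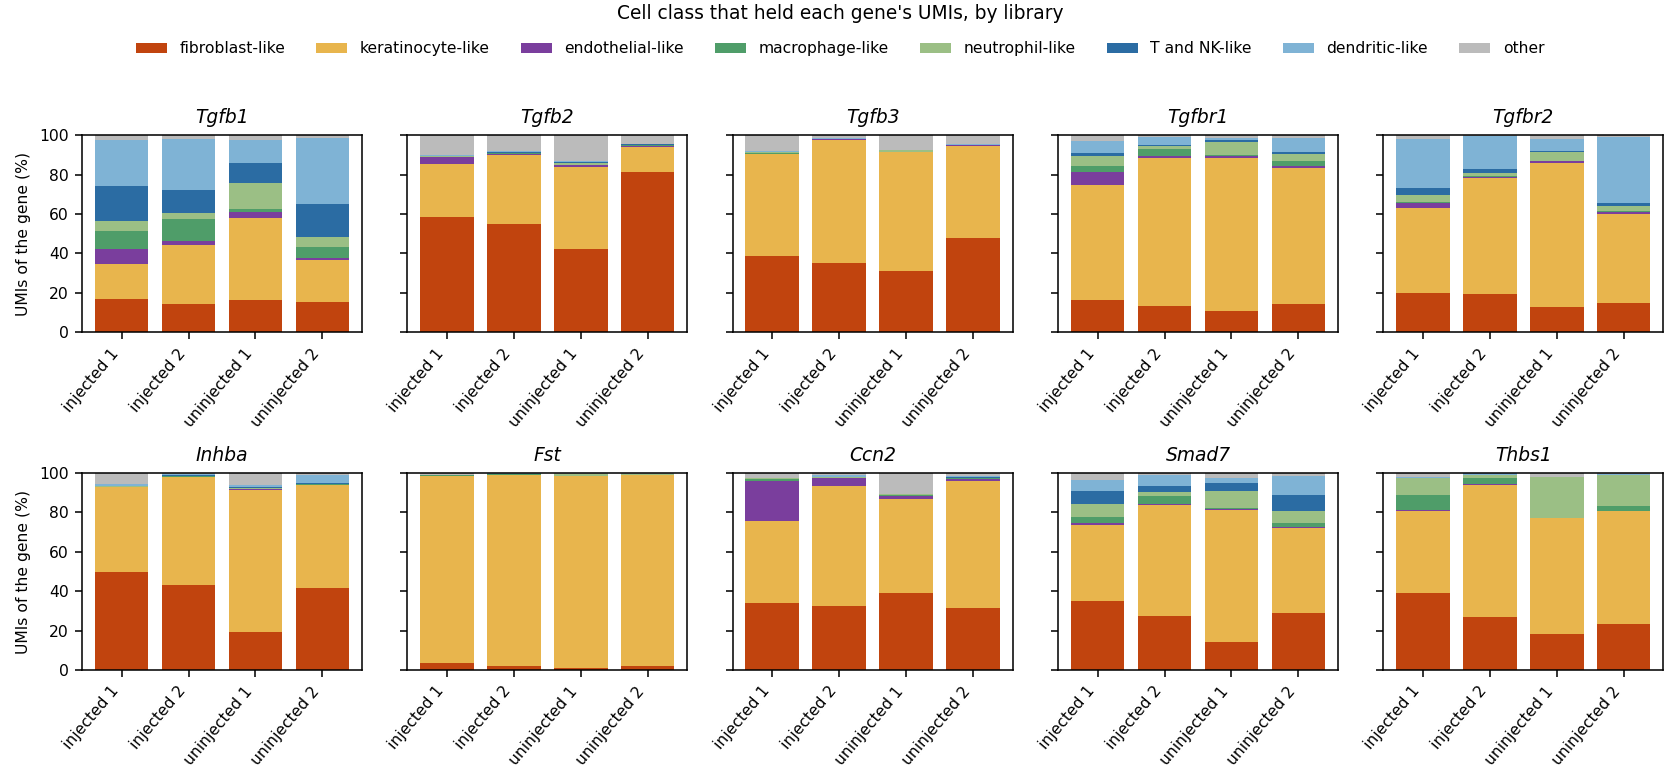
Share of each gene's UMIs (percent, vertical axis) that lay in each cell class, with 1 stacked bar per library, injected bars left of uninjected ones. Fst lay almost wholly in keratinocyte-like cells (95.2% to 97.3%), while Tgfb1 was spread over all classes.

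Tgfb1, which encodes the most widely expressed TGF-beta, was highest in T and NK-like cells, at 509 to 725 CPM over the 4 libraries. Dendritic-like cells followed with 279 to 375 CPM, then macrophage-like cells with 196 to 231 CPM and endothelial-like cells with 174 to 197 CPM, ranges that touch at their ends. Neutrophil-like cells (59.0 to 83.6 CPM) and fibroblast-like cells (45.6 to 65.7 CPM) overlapped, and keratinocyte-like cells were lowest at 27.4 to 33.6 CPM. Within the T and NK-like class, cluster 12, led by Gzmk, Ccl5 and Nkg7, had 774 to 1100 CPM without TMM scaling, and cluster 19, led by Icos and Il2ra, had 191 to 320 CPM.

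Tgfb2 and Tgfb3 were highest in fibroblast-like cells among the 7 classes. Tgfb2 reached 58.3 to 180 CPM there and 10.5 to 59.3 CPM in endothelial-like cells, ranges that overlap at their ends, against at most 21.2 CPM in keratinocyte-like cells and 17.7 CPM in T and NK-like cells. Without TMM scaling it also stood at 109 to 197 CPM in a mixed cluster of 247 cells that carried markers of skeletal muscle, melanocytes and Schwann cells. Tgfb3 was highest in fibroblast-like cells, at 10.0 to 18.2 CPM, and in an unnamed cluster of 163 cells that scored highest for mural markers, at 29.9 to 43.7 CPM without scaling, and had 0 UMIs in T and NK-like cells of every library.

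Inhba was highest per UMI in fibroblast-like cells (299 to 754 CPM) and then in keratinocyte-like cells (193 to 308 CPM), ranges that overlap. The mural-scoring cluster had 1964 and 130 CPM in injected 1 and 2, against 1047 and 642 CPM in uninjected 1 and 2, without TMM scaling. Only 6 of its cells came from injected 2, against 64, 68 and 25 in the others. Dendritic-like cells had 43.5 to 118 CPM, and the remaining tested classes had between 6.84 and 119 CPM with wide spread. Of these, neutrophil-like cells could owe up to 43.65% to 65.93% of their Inhba UMIs per library to free RNA, estimated as described below. The limit was at most 18.0% in macrophage-like, T and NK-like and endothelial-like cells.

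Among keratinocyte-like clusters the ligand and its inhibitor ran apart in cluster 9, while cluster 2 was high in both. Cluster 9, led by Krt15 and Sema3e and holding 3060 cells, had the lowest Inhba, at 18.8 and 30.9 CPM in injected 1 and 2, against 19.2 and 11.0 CPM in uninjected 1 and 2. In the same cluster Fst was at 1209 and 1461 CPM in the injected libraries, against 1473 and 2169 CPM in the uninjected ones, the highest of all clusters in each of the 4 libraries. Cluster 2, led by Nrg1 and Pappa1 with 2811 cells, had the highest Inhba of the class, at 529 and 580 CPM in injected wounds, against 359 and 428 CPM in uninjected wounds. Its Fst was also high, at 944 and 1215 CPM, against 923 and 1327 CPM. Cluster 9 had the highest Smad7 of the keratinocyte-like clusters too, at 242 and 193 CPM in injected wounds, against 252 and 270 CPM in uninjected wounds. These are descriptions of clusters, whose cells share 4 libraries, and values here are not TMM scaled.

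**Figure D2:**
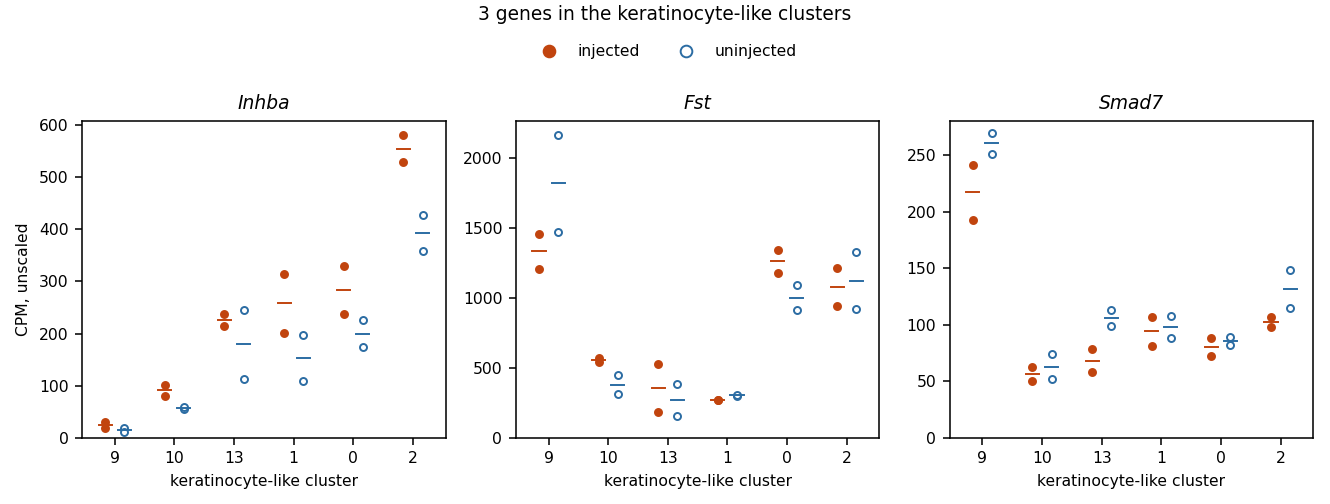
Unscaled CPM (linear axis) of Inhba, Fst and Smad7 in the 6 keratinocyte-like clusters, ordered by mean Inhba. Points are libraries, filled for injected and open for uninjected, and short lines are means. Cluster 9 had at most 30.9 CPM of Inhba and at least 1209 CPM of Fst.

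Of the receptors, Tgfbr2 was highest in dendritic-like cells, at 177 to 456 CPM, and this level came from 1 cluster. Cluster 16, led by Blnk, Ifi30 and Irf8, had 1228 and 1360 CPM in the injected libraries, against 566 and 1175 CPM in the uninjected ones, while the other 2 dendritic-like clusters had between 7.19 and 59.8 CPM. Tgfbr1 lay between 15.4 CPM in T and NK-like cells and 66.7 CPM in macrophage-like cells, with ranges that overlap for most neighbours in that order. Tgfbr2 had 0 UMIs in the 62 macrophage-like cells of uninjected 1, against 16.5 and 22.0 CPM in injected 1 and 2 and 28.5 CPM in uninjected 2.

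Thbs1 was expressed by fibroblast-like cells (114 to 239 CPM), neutrophil-like cells (63.6 to 324 CPM), macrophage-like cells (99.6 to 302 CPM) and keratinocyte-like cells (92.4 to 129 CPM), with overlapping ranges. It was low in dendritic-like, endothelial-like and T and NK-like cells, at 27.8 CPM or less. Smad7 was highest in T and NK-like cells (242 to 694 CPM), and its ranges overlapped among most other classes. Ccn2 was at 31.3 to 52.9 CPM in fibroblast-like cells, 10.9 to 29.3 CPM in keratinocyte-like cells and 8.75 CPM or less in macrophage-like, dendritic-like, neutrophil-like and T and NK-like cells.

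**Figure D3:**
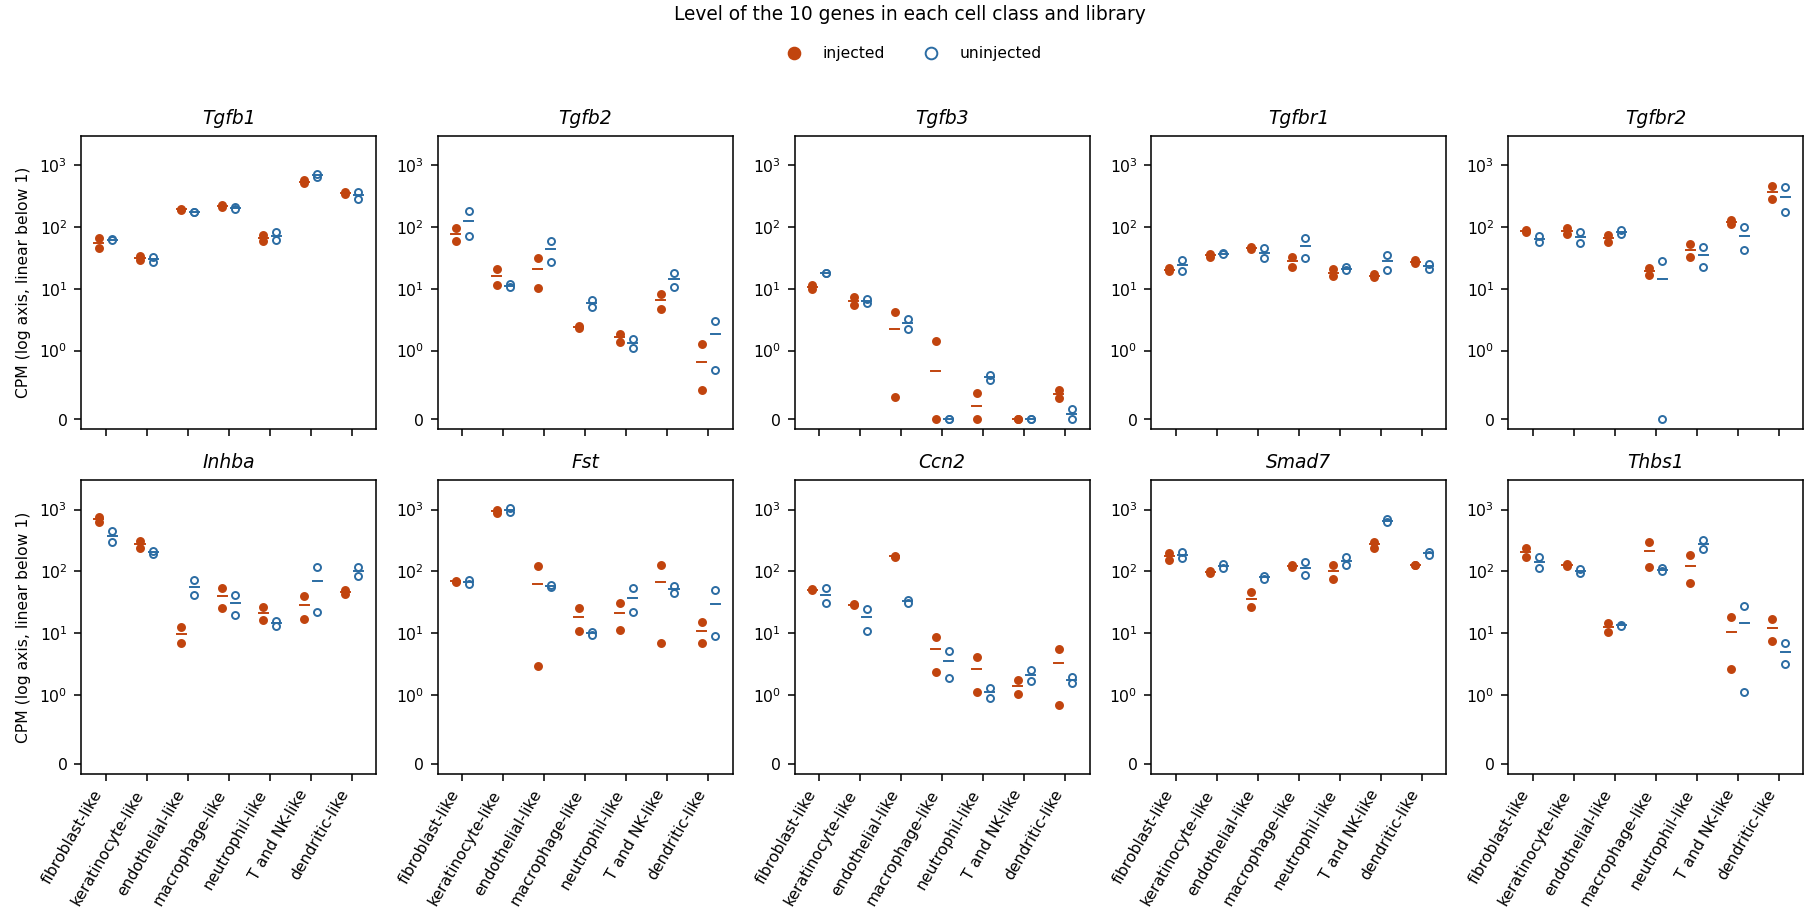
CPM of each gene (log axis, linear below 1) in 7 cell classes. Filled points are the injected libraries, open points to their right the uninjected libraries, and short lines are group means. Fst stood between 878 and 1059 CPM in keratinocyte-like cells, and Tgfb1 was highest in T and NK-like cells.

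The comparison of injected with uninjected wounds asks whether cells of the injected wounds differ in these genes from cells of the uninjected ones. It was made on the summed counts of each class with the quasi-likelihood test of edgeR, with p-values adjusted over all tested genes by the Benjamini-Hochberg method and a threshold of 0.05. None of the 10 genes passed in any class. In fibroblast-like cells 0 of 10 tested members passed, where 0.0299% of all tested genes did (4 of 13363), and 2 members had an unadjusted p under 0.05, as did 10.7% of all tested genes (1431). In macrophage-like cells 0 of 9 passed, where 0.0116% of genes did. In dendritic-like (7 members tested), T and NK-like (8), keratinocyte-like (10) and neutrophil-like cells (7) 0 members passed, and 0% of the genes tested in each of these classes did. The members with an unadjusted p under 0.05 numbered 3 of 7 in dendritic-like cells (5.01% of all tested genes), 1 of 8 in T and NK-like cells (7.2%), and 0 in keratinocyte-like (4.77%), neutrophil-like (8.91%) and macrophage-like cells (5.02%). The Wald test of DESeq2 called 0 members in these 6 classes, and called 186 genes in fibroblast-like cells and 3 to 49 in the others. Groups without overlap were common, since per class between 18.5% and 24.3% of all tested genes were higher in both injected libraries and between 17.1% and 22.0% were lower in both. Gene by gene differences below are therefore values with their errors, and those that stand out are given for every library.

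Inhba was higher in injected than in uninjected fibroblast-like cells and lower in injected dendritic-like cells, and neither difference passed the threshold. In fibroblast-like cells it stood at 754 and 631 CPM in injected 1 and 2, against 299 and 445 CPM in uninjected 1 and 2. Both injected libraries were above both uninjected ones (log2 difference 0.90, SE 0.31, unadjusted p = 0.0252, adjusted p = 0.4295 by edgeR). Cluster 14, which held 2443 of the 2553 fibroblast-like cells, showed it at 740 and 648 CPM, against 272 and 499 CPM, without scaling, and the small cluster 23 did not, at 236 and 222 CPM, against 318 and 125 CPM. Leaving out uninjected 2 brought it past the threshold (1.22, edgeR adjusted p = 0.00823), with uninjected 1 as the lone uninjected library and assumed to vary like the injected ones. Without uninjected 1 it was 0.62 and did not pass. Macrophage markers summed to 1320 and 1332 CPM in injected fibroblast-like cells, against 672 and 674 CPM in uninjected ones. Between 1 and 5 of the 12 markers were at 0 per library. They include Apoe, which keratinocyte-like cells held at a level near that of macrophage-like cells. The same 12 markers summed to 8502 to 19670 CPM in keratinocyte-like cells, so the sum is not specific to macrophage RNA. Its part in the fibroblast-like differences was not tested. In keratinocyte-like cells Inhba had 308 and 241 CPM in injected wounds, against 193 and 216 CPM in uninjected wounds, again without overlap (log2 difference 0.42, SE 0.23, edgeR adjusted p = 0.830).

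In dendritic-like cells Inhba stood at 49.3 and 43.5 CPM in injected 1 and 2, against 82.9 and 118 CPM in uninjected 1 and 2. The groups did not overlap (log2 difference −1.13, SE 0.27, unadjusted p = 0.00489, adjusted p = 0.907 by edgeR), and with no filter on low counts the adjusted p was 0.0482. The difference was not alike in the 3 dendritic-like clusters. In cluster 18, led by class II MHC genes, Napsa and Cd207, Inhba had 116 and 81.6 CPM in injected wounds, against 129 and 213 CPM in uninjected wounds. In cluster 17 it had 27.1 and 23.8 CPM, against 28.8 and 161 CPM, so uninjected 2 alone was high there. Free RNA could supply at most 10.8% of these UMIs in injected 2 and less in the other libraries, estimated as the largest multiple of the empty-droplet profile that leaves no abundant gene below 0.

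Tgfb3 was lower in both injected than in both uninjected fibroblast-like libraries, at 11.6 and 10.0 CPM in injected 1 and 2, against 18.1 and 18.2 CPM in uninjected 1 and 2. The log2 difference was −0.74 (SE 0.22, unadjusted p = 0.0125, adjusted p = 0.397 by edgeR). Tgfb2 in the same cells had 95.9 and 58.3 CPM, against 71.5 and 180 CPM, with overlap (log2 difference −0.71, SE 0.45, edgeR adjusted p = 0.627). Its sign rested on uninjected 2, for the difference was 0.12 without that library and −1.24 without uninjected 1 (edgeR adjusted p = 0.0355). Tgfb1 differed by at most 0.35 on the log2 scale in any of the 7 classes, with −0.17 in fibroblast-like, 0.08 in keratinocyte-like and 0.13 in macrophage-like cells (SE 0.24, 0.17 and 0.34).

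The receptor genes differed by at most 0.65 on the log2 scale, and none passed. Tgfbr2 stood at 89.9 and 81.8 CPM in injected fibroblast-like cells, against 57.5 and 70.6 CPM in uninjected ones, without overlap (log2 difference 0.42, SE 0.22, edgeR adjusted p = 0.548). Over the 7 classes its difference ran between −0.32 and 0.65, and that of Tgfbr1 between −0.64 and 0.29.

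Thbs1 was higher in injected macrophage-like cells and lower in injected neutrophil-like cells, without passing in either. Macrophage-like cells had 302 and 117 CPM in injected 1 and 2, against 113 and 99.6 CPM in uninjected 1 and 2. Injected 1 was far above the other libraries, which lay close together (log2 difference 1.002, SE 0.47, unadjusted p = 0.0573, edgeR adjusted p = 0.937). Neutrophil-like cells had 185 and 63.6 CPM in injected 1 and 2, against 231 and 324 CPM in uninjected 1 and 2, without overlap (log2 difference −1.15, SE 0.55, unadjusted p = 0.0744, edgeR adjusted p = 0.556). Leaving out uninjected 1 took this past the threshold (−1.33, edgeR adjusted p = 0.00613). With another library left out it did not pass, and ran from −2.11 without injected 1 to −0.52 without injected 2. The neutrophil-like class was made of different clusters in each library, with 2514 of 4375 cells of uninjected 1 in cluster 8 and 170 of 1591 cells of injected 2. Injected 2 was the lowest library in each of the 5 neutrophil-like clusters for Thbs1, with 39.7 CPM in cluster 8, against 266 CPM in injected 1 and 268 and 405 CPM in the uninjected libraries, without scaling. In clusters 5, 6 and 7 the groups overlapped, with injected 1 above an uninjected library, at 21.8 CPM against 16.8 CPM, 126 CPM against 111 CPM and 224 CPM against 192 CPM. Dendritic-like cells had only 7.44 and 17.2 CPM of Thbs1 in injected wounds, against 6.91 and 3.15 CPM in uninjected wounds (log2 difference 1.51, SE 0.63, unadjusted p = 0.0489, edgeR adjusted p = 0.907), and up to 24.8% of these UMIs could be free RNA.

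Smad7 was lower in injected T and NK-like, dendritic-like, neutrophil-like and keratinocyte-like cells, and the groups did not overlap in these 4 classes. Between 17.1% and 22.0% of all genes tested in each of them were likewise lower without overlap. T and NK-like cells had 303 and 242 CPM in injected 1 and 2, against 694 and 632 CPM in uninjected 1 and 2. This was the smallest p among the members in the 6 classes (log2 difference −1.28, SE 0.28, unadjusted p = 0.00242, adjusted p = 0.536 by edgeR), and it passed without uninjected 2 (−1.30, edgeR adjusted p = 0.0439) and with no low count filter (−1.21, edgeR adjusted p = 0.0456). Both T and NK-like clusters showed it, with 273 and 261 CPM in injected wounds, against 630 and 679 CPM in uninjected wounds, for cluster 12, and 387 and 260 CPM, against 520 and 607 CPM, for cluster 19. Free RNA could supply at most 0.769% of these UMIs. Dendritic-like cells had 127 and 126 CPM in injected wounds, against 209 and 184 CPM in uninjected wounds (log2 difference −0.63, SE 0.24, unadjusted p = 0.0374, edgeR adjusted p = 0.907). Without scaling, both injected libraries were lower in dendritic-like clusters 16 and 18. The groups overlapped in cluster 17, with 120 and 90.5 CPM, against 147 and 111 CPM. The gap was narrow in neutrophil-like cells, with 125 and 74.2 CPM in injected 1 and 2, against 127 and 172 CPM in uninjected 1 and 2 (log2 difference −0.58, SE 0.41). Without scaling, the groups overlapped in neutrophil-like clusters 6 and 7. In clusters 4, 5 and 8 both injected libraries were lower. Keratinocyte-like cells had 103 and 95.5 CPM in injected wounds, against 131.5 and 115 CPM in uninjected wounds (log2 difference −0.31, SE 0.18, edgeR adjusted p = 0.831). Without scaling, the groups overlapped in keratinocyte-like clusters 0, 1 and 10, and both injected libraries were lower in clusters 2, 9 and 13. In macrophage-like cells Smad7 overlapped between groups, with 116 and 129 CPM in injected wounds, against 87.2 and 142 CPM in uninjected wounds (log2 difference 0.03, SE 0.36). In fibroblast-like cells it overlapped too, with 196 and 153 CPM, against 166 and 203 CPM (log2 difference −0.08, SE 0.25).

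Fst did not separate the groups in its main source. Keratinocyte-like cells had 878 and 988 CPM in injected 1 and 2, against 911 and 1059 CPM in uninjected 1 and 2 (log2 difference −0.08, SE 0.26, edgeR adjusted p = 0.963). Its levels in other classes were unsteady, such as 6.88 and 126 CPM in injected T and NK-like cells, against 58.1 and 44.9 CPM in uninjected ones. Up to 44.2% of the UMIs there could be free RNA in injected 1, the lowest library, but at most 6.83% in injected 2, the highest. In neutrophil-like cells it had 11.3 and 30.4 CPM in injected wounds, against 53.8 and 21.6 CPM in uninjected wounds, and between 68.7% and 100% of these UMIs could be free RNA. That difference was −0.89 (SE 0.61, edgeR adjusted p = 0.653) and passed, among the libraries left out in turn, only without uninjected 2 (−1.40, edgeR adjusted p = 0.00483).

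Ccn2 had its largest difference in endothelial-like cells, a class that fell short of the minimum of 50 cells with 44 in injected 2. Endothelial-like cells expressed 9 of 9 measured endothelial markers in every library and numbered 153 and 44 in injected 1 and 2, against 57 and 55 in uninjected 1 and 2. Ccn2 had 545 and 82 UMIs in the injected libraries, against 15 and 19 UMIs in the uninjected ones. These are 178 and 171 CPM in injected 1 and 2, against 34.0 and 31.3 CPM in uninjected 1 and 2. In CPM the 2 libraries of each group were close to each other and the groups far apart. Few cells carried these UMIs. Ccn2 was detected in 41.8% and 20.45% of the cells in injected 1 and 2, against 10.5% and 14.55% in uninjected 1 and 2. At an equal depth of 1000 UMIs per cell, the expected shares were 11.2% and 8.76%, against 4.01% and 4.09%. Free RNA could supply at most 0.655% of these UMIs, and the class's summed endothelial markers were alike, at 4152 and 4913 CPM in injected wounds, against 3581 and 4189 CPM in uninjected wounds.

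A fit of these cells with a minimum of 40 was added after the Ccn2 values had been seen. It gave a log2 difference of 2.42 (SE 0.33, unadjusted p = 0.000102, adjusted p = 0.168 by edgeR), and 0 of 8 tested members passed where 0.0152% of genes did (1 of 6600, with 738 at an unadjusted p under 0.05). DESeq2 gave an adjusted p of 0.00529 for Ccn2 and called 2 members, Ccn2 and Inhba. Without doublet removal, which left 185 and 45 such cells in injected 1 and 2, against 60 and 61 in uninjected 1 and 2, the difference was 1.80 (edgeR adjusted p = 0.238). Ccn2 passed edgeR's test without injected 1 (adjusted p = 0.00300), without injected 2 (0.00855) or without uninjected 2 (0.0123), and not without uninjected 1 (0.121). Its promoter is the one printed above. In the other classes with a fit, Ccn2 differed by 0.27 in fibroblast-like cells (49.1 and 52.1 CPM in injected wounds, against 52.9 and 31.3 CPM in uninjected wounds) and by 0.69 in keratinocyte-like cells (28.4 and 29.3 CPM, against 10.9 and 24.9 CPM). In macrophage-like cells the difference was 1.31 (SE 0.92), with overlap. It came from 25 and 5 UMIs in injected 1 and 2, against 1 and 4 UMIs in uninjected 1 and 2, and up to 26.15% of these could be free RNA. The keratinocyte-like value was 0.21 without uninjected 1, and 1.42 without uninjected 2, which left uninjected 1 alone (edgeR adjusted p = 0.0157).

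In the same endothelial-like cells Inhba and Smad7 ran the other way. Inhba had 6.84 and 12.5 CPM in injected 1 and 2, against 40.8 and 72.4 CPM in uninjected 1 and 2, from 21 and 6 UMIs, against 18 and 44 UMIs. The groups did not overlap (log2 difference −2.77, SE 0.51, unadjusted p = 0.000751, edgeR adjusted p = 0.1885), and up to 18.0% of these UMIs could be free RNA. Inhba passed edgeR's test without injected 2 (−3.07, adjusted p = 0.00840). Fst in these cells had 2.93 and 121 CPM in injected 1 and 2, against 56.6 and 60.9 CPM in uninjected 1 and 2, with overlap (log2 difference −0.17, SE 1.26, edgeR adjusted p = 0.964). It was −4.31 without injected 2 (edgeR adjusted p = 0.00098) and 1.05 without injected 1. The 13 measured keratinocyte markers summed to 281 and 1144 CPM there in the injected libraries, against 714 and 449 CPM in the uninjected ones, with 1 to 3 of them at 0. Up to 40.6% of the Fst UMIs of injected 1 could be free RNA, and the part of either in the Fst values was not tested. Smad7 had 26.1 and 46.0 CPM, against 83.8 and 75.7 CPM (log2 difference −1.24, SE 0.39, edgeR adjusted p = 0.412). Median depth differed between these libraries, with 17985 UMIs per endothelial-like cell in injected 1, against 7488 in injected 2 and 6398 and 9268 in uninjected 1 and 2, and its part in these differences was not tested.

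**Figure D4:**
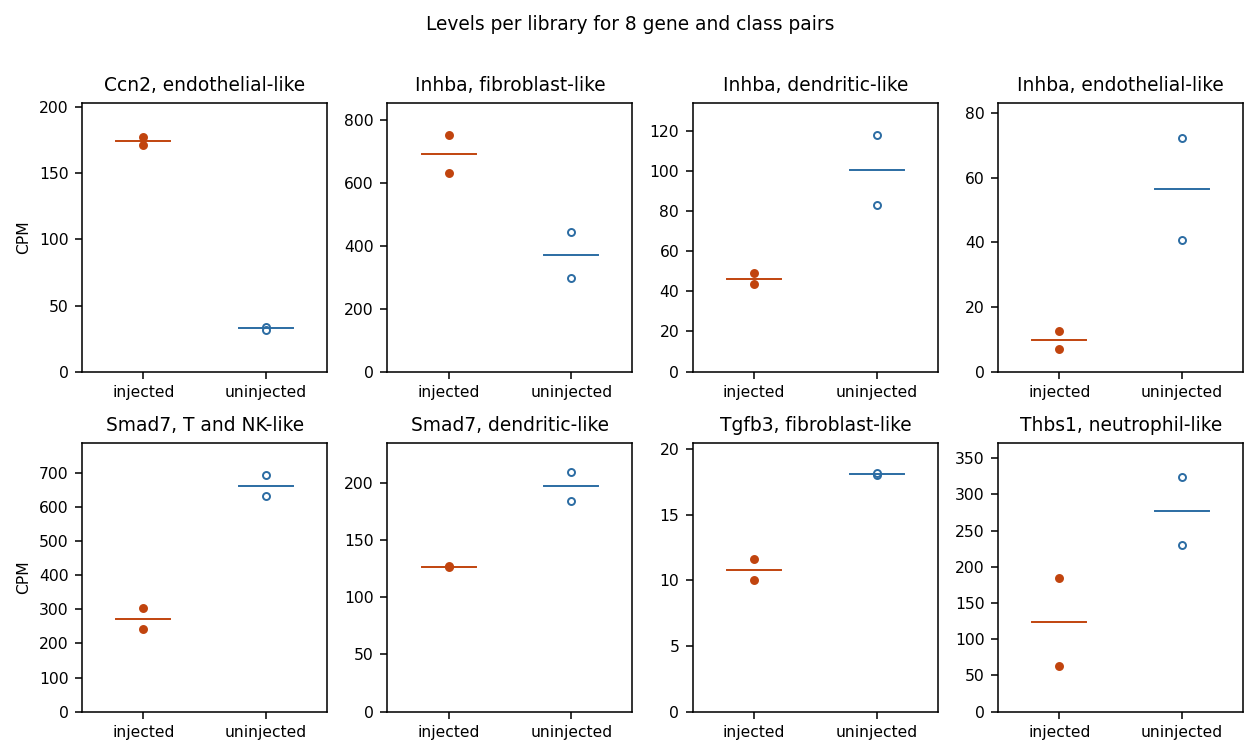
CPM per library (linear axis from 0) for 8 pairs of gene and cell class, injected left and uninjected right, with lines at the means. The 8 pairs were picked from 59 fitted differences, and all 8 are pairs whose groups do not overlap. Per class, between 18.5% and 24.3% of all tested genes were higher in both injected libraries and between 17.1% and 22.0% were lower in both. Ccn2 in endothelial-like cells stands at 171 CPM or more in injected and 34.0 CPM or less in uninjected wounds.

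Whether a gene's difference varied among the 6 main classes was tested with an edgeR F test that kept the library as a block. It called 0.117% of genes (16 of 13711) and 0 of the 10 members. The smallest unadjusted p-values were 0.0149 for Smad7 (adjusted p = 0.409), 0.0157 for Inhba (adjusted p = 0.414) and 0.0604 for Thbs1 (adjusted p = 0.597) by edgeR. The other 7 members had edgeR adjusted p between 0.690 and 0.972. With no low count filter Inhba, Thbs1 and Fst passed (edgeR adjusted p = 1.904e-07, 1.829e-08 and 0.0186). The opposite signs of Inhba in fibroblast-like and dendritic-like cells, and of Thbs1 in macrophage-like and neutrophil-like cells, were thus not shown to differ by the main test.

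**Figure D5:**
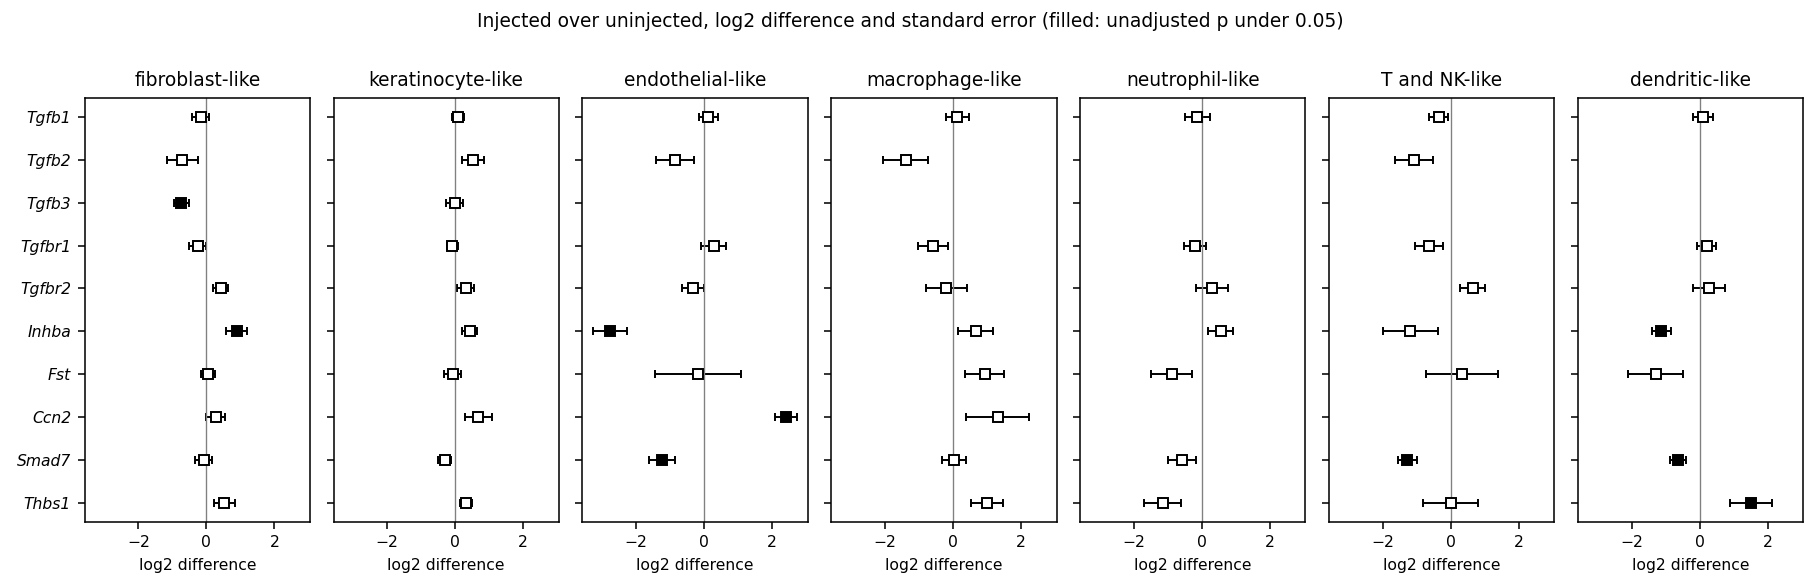
Log2 difference, injected over uninjected (horizontal axis), with its standard error, for each tested gene in 7 cell classes. Filled squares had an unadjusted p under 0.05, and no square passed the adjusted threshold. Ccn2 in endothelial-like cells lies farthest right at 2.42 and Inhba there farthest left at −2.77.

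Further genes of the pathway were read from 6 lists of ligands, receptors, storage and activation proteins, Smads and cofactors, inhibitors, and targets, which include the 10 members. No gene of any list passed edgeR's test in any of the 7 classes. In fibroblast-like cells the fitted differences of ligands were positive for 4 and negative for 3 (median log2 difference 0.13), of receptors for 5 and 4 (0.09), of storage and activation proteins for 7 and 5 (0.25), of Smads and cofactors for 2 and 4 (−0.22), of inhibitors for 4 and 9 (−0.10), and of targets for 9 and 7 (0.24). The median over all 13363 genes tested there was −0.001. An unadjusted p under 0.05 was reached in these lists by 2, 1, 1, 3, 2 and 5 genes in the same order, of 7, 9, 12, 6, 13 and 16 tested, where 10.7% of all genes did. In macrophage-like cells 1 of 11 inhibitors and 2 of 11 targets reached it (5.02% of all genes), and in keratinocyte-like cells 1 of 6 Smads and cofactors, 2 of 13 inhibitors and 2 of 16 targets (4.77%). In neutrophil-like cells 1 of 10 storage and activation genes, 1 of 5 Smads and cofactors, 1 of 11 inhibitors and 1 of 15 targets did (8.91%). In T and NK-like cells 1 of 8 storage and activation genes, 1 of 5 Smads and cofactors, 3 of 11 inhibitors and 1 of 9 targets did (7.2%). In dendritic-like cells 1 of 3 ligands, 2 of 9 storage and activation genes, 1 of 6 Smads and cofactors, 2 of 11 inhibitors and 2 of 12 targets did (5.01%). In endothelial-like cells 1 of 4 ligands, 1 of 7 receptors, 4 of 7 storage and activation genes, 2 of 5 Smads and cofactors, 1 of 11 inhibitors and 2 of 11 targets did (11.2%). Lists of a class that are not named here had 0 such genes.

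Smad4, the shared partner of the receptor-activated Smads, was lower in both injected libraries than in both uninjected ones in each of the 7 classes. Fibroblast-like cells had 11.0 and 14.0 CPM in injected 1 and 2, against 26.6 and 21.4 CPM in uninjected 1 and 2 (log2 difference −0.94, SE 0.24, unadjusted p = 0.00609, adjusted p = 0.345 by edgeR). T and NK-like cells had 49.5 and 57.5 CPM, against 109 and 91.5 CPM. Uninjected 1 was the highest library in all 7 classes, and uninjected 2 was above both injected libraries in each. The log2 differences ran between −1.16 and −0.60, with unadjusted p under 0.05 in 6 of the classes and no adjusted p under 0.05. The classes share their libraries, and 609 of the 5385 genes tested in all 7 classes (11.3%) had a negative difference in each, and 32 were lower without overlap in each. Smad3, which the receptors activate, had 66.1 and 40.5 CPM in injected fibroblast-like cells, against 27.3 and 31.9 CPM in uninjected ones, and Tgif1, a repressor bound by Smads, had 230 and 205 CPM, against 143 and 138 CPM (log2 differences 0.85 and 0.63, edgeR adjusted p = 0.423 and 0.434). Trim33, a ubiquitin ligase of the pathway, had 28.0 and 21.0 CPM in injected macrophage-like cells, against 56.4 and 34.6 CPM in uninjected ones.

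Among receptors, Acvrl1, a type I receptor best known from endothelium, had 38.7 and 31.8 CPM in injected fibroblast-like cells, against 18.1 and 23.9 CPM in uninjected ones (log2 difference 0.74, edgeR adjusted p = 0.4078). Acvr1b, the type I receptor for activin, had 15.0 and 15.7 CPM, against 11.1 and 11.8 CPM in the same cells. Acvr2a, an activin type II receptor, had 16.5 and 15.0 CPM in injected macrophage-like cells, against 20.5 and 29.4 CPM in uninjected ones. None of these overlapped between the groups and none passed. Of all tested genes, 21.2% were higher without overlap in fibroblast-like cells and 17.6% lower in macrophage-like cells. In macrophage-like cells of uninjected 1, 1 UMI amounted to 5.13 CPM, so the Acvr2a value there rests on few UMIs.

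Among storage proteins Ltbp4, a latent TGF-beta binding protein, was at 8.84 and 13.6 CPM in injected fibroblast-like cells, against 46.2 and 16.2 CPM in uninjected ones, where uninjected 1 was far above the rest (log2 difference −1.46, SE 0.49, edgeR adjusted p = 0.423). In keratinocyte-like cells it was at 67.2 and 40.1 CPM in injected wounds, against 36.3 and 35.3 CPM in uninjected wounds. Itgb6, a chain of an integrin that releases active TGF-beta, had 2.09 and 2.77 CPM in injected fibroblast-like cells, against 3.43 and 4.52 CPM in uninjected ones.

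Among inhibitors, Pmepa1, a TGF-beta-induced membrane protein that sequesters Smads, had 149 and 137 CPM in injected fibroblast-like cells, against 311 and 211 CPM in uninjected ones (log2 difference −0.87, SE 0.27, edgeR adjusted p = 0.4075). Its difference was negative in all 7 classes, between −1.54 in T and NK-like cells and −0.59 in endothelial-like cells, and uninjected 1 was its highest library in each. Bambi, a decoy receptor, had 56.5 and 72.2 CPM in injected fibroblast-like cells, against 39.9 and 45.2 CPM in uninjected ones. Smad6, an inhibitory Smad, had 2.23 and 1.45 CPM in injected keratinocyte-like cells, against 5.09 and 3.07 CPM in uninjected ones. Dcn, a matrix proteoglycan that binds TGF-beta and is itself a fibroblast marker, had 23.0 and 22.0 CPM in injected keratinocyte-like cells, against 6.50 and 11.5 CPM in uninjected ones (log2 difference 1.32, edgeR adjusted p = 0.830). It was higher without overlap in all 7 classes, by 0.53 to 1.53 on the log2 scale, as were 18 of the 5385 genes tested in all of them, with 133 and 130 CPM in injected neutrophil-like cells, against 35.3 and 56.2 CPM in uninjected ones. The 10 measured fibroblast markers include Dcn and Col3a1 themselves. They summed to 111 and 118 CPM in injected keratinocyte-like cells, against 45.0 and 83.4 CPM in uninjected ones, with none at 0. In neutrophil-like cells they summed to 453 and 518 CPM in injected wounds, against 235 and 364 CPM in uninjected wounds. Their part in these differences was not tested.

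Among targets, Tagln, an actin-binding protein of contractile cells, had 25.9 and 20.3 CPM in injected fibroblast-like cells, against 88.4 and 56.7 CPM in uninjected ones (log2 difference −1.65, SE 0.29, unadjusted p = 0.000785, adjusted p = 0.211 by edgeR). In keratinocyte-like cells it had 8.63 and 24.0 CPM in injected wounds, against 4.85 and 6.49 CPM in uninjected wounds. Fn1, which encodes fibronectin, had 1254 and 747 CPM in injected macrophage-like cells, against 1893 and 3005 CPM in uninjected ones (log2 difference −1.29, SE 0.44, edgeR adjusted p = 0.937). Col3a1, a fibrillar collagen gene and itself a fibroblast marker, had 21.2 and 23.5 CPM in injected keratinocyte-like cells, against 13.9 and 16.8 CPM in uninjected ones. The summed fibroblast markers given above, which include Col3a1, were also higher there in injected wounds.

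The genes whose levels ran most like those of the members were found over the 24 sums of 6 classes and 4 libraries, as Pearson's r of log2(CPM + 1). The sums share 4 libraries and differ mostly by class, so r describes the classes in which genes were expressed. Fst ran with Itgb6, Cdc42ep1 and Chl1 (r 0.958, 0.953 and 0.945), and Inhba with Txndc5, Adamts9 and Dennd2b (0.957, 0.943 and 0.936). Tgfb3 ran with Wnt5a, Ndst1 and Cfap300 (0.976, 0.975 and 0.973), and Tgfb2 with Cfl2, Pgm3 and Bhlhb9 (0.942, 0.925 and 0.923). Tgfb1 ran with Tpst2, AABR07068161.1 and Sytl3 (0.973, 0.970 and 0.969), and Tgfbr2 with Rfk, Fv1 and Diablo (0.971, 0.941 and 0.925). Thbs1 ran with Srf, Egr1 and Hspa1b (0.930, 0.886 and 0.877), of which Srf and Egr1 encode transcription factors of the immediate early response. Ccn2 ran with Bmp1, Fzd2 and Ugdh (0.946, 0.942 and 0.935), and Smad7 with Il27ra, Ffar4 and Stard7 (0.906, 0.892 and 0.884). Tgfbr1 had the lowest values, with Pou2f3, Nrtn and LOC100912070 at 0.815, 0.814 and 0.799.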

How the data were processed

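The 4 single-cell libraries, 2 of injected and 2 of uninjected wounds, were analysed from raw matrices of UMI counts as deposited by the authors. These list every barcode and were written by Cell Ranger 7.2.0 per the file headers, while Cell Ranger 5.0.1 stands in the submitters' processing notes. The genome build is not given in the sources used here. Total UMIs ran from 75823418 to 105605297 per library, over 1808658 to 1943529 barcodes.

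Cells were called with Python 3.11.15 against the profile of barcodes ranked 45000 to 90000, with a minimum of 500 UMIs, a false discovery rate of 0.01 over 1000 draws, at least 250 genes and at most 20% mitochondrial UMIs. A barcode was also called where its UMIs exceeded a knee, set by dividing the 99th percentile over the top 3000 barcodes by 10. Simulated doublets were used to remove 0.8% of cells per 1000 cells called, that is 328 to 930 per library. Cells were scaled to 10000 UMIs and clustered on 2000 genes, 30 components and 15 neighbours at resolution 1 with scanpy 1.11.5, igraph 0.11.9 and scikit-learn 1.9.0, leaving out members and pathway genes that mark no class. A cluster was named from at least 3 markers that were detected in 20% of its cells and 2-fold higher. Naming rests on rebuilt clusters and not on an annotation by the authors.

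Counts summed per class and library were tested with edgeR 4.0.16 in R 4.3.3 (TMM, quasi-likelihood, filterByExpr, Benjamini-Hochberg), where each library had at least 50 cells, and DESeq2 1.42.0 was an alternative. The scripts were tested on simulated data. The members and lists were chosen with earlier results of these data known. Of each list, genes past the test and up to 2 higher and 2 lower with the smallest p in fibroblast-like, macrophage-like or keratinocyte-like cells were named, and for each member the 3 genes of highest r. Same-numbered libraries did not deviate together, with correlations of −0.169 to 0.007 over the 7 classes, so the replicate number was not taken as a pairing. Precision is limited by the UMIs of a class, which are given for the smallest class, and by 2 libraries per group. Alternatives were size factors, DESeq2, no low count filter, a replicate block, each library left out, gating of single cells, no doublet removal and a minimum of 1000 UMIs.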

Additional observations from a re-analysis of the deposited data

How the results depend on the processing

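Of 59 fitted differences of the members, 36 had 1 direction under every alternative and 23 turned round under at least 1. Of 602 alternative values, 536 stayed on their side of the threshold with the same sign, 19 passed it and 47 had the other sign. Where a library was left out, its group's lone library was assumed to vary like the others. No cause of these shifts was tested. Not run for too few cells were single-cell gating of macrophage-like, T and NK-like, dendritic-like and endothelial-like cells and of the test among classes, and the minimum of 1000 UMIs for endothelial-like cells.

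Genes past the threshold by DESeq2 numbered 186 in fibroblast-like, 3 in macrophage-like, 49 in neutrophil-like, 37 in keratinocyte-like, 12 in T and NK-like, 12 in dendritic-like and 46 in endothelial-like cells. With no low count filter edgeR gave 658, 69, 397, 2, 213, 256 and 347 in the same order. With 1 library left out the counts spanned 0 to 1125, 13 to 152, 0 to 1383, 0 to 733, 0 to 280, 0 to 241 and 2 to 342, the highest of the fibroblast-like, neutrophil-like and keratinocyte-like ranges without uninjected 2. The test among classes called 10 genes with median-ratio size factors, 654 with no filter and 0 to 38 with 1 library left out. Members past the threshold were 1 in T and NK-like and 1 in dendritic-like cells with no filter, 0 to 1 in fibroblast-like, neutrophil-like, keratinocyte-like and T and NK-like cells with 1 library left out, and in endothelial-like cells 2 by DESeq2, 2 with no filter and 0 to 3 with 1 library left out.

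With the replicate number as a block, the replicate block called 7 genes in fibroblast-like, 5 in macrophage-like and 119 in endothelial-like cells, and 2 members in endothelial-like cells (Ccn2 at 2.42 and Inhba at −2.54, adjusted p = 0.00186 and 0.00661 by edgeR). It turned Tgfbr2 in macrophage-like cells to 0.20 and Fst in T and NK-like cells to −0.37, and changed no other member's call in the 6 larger classes. The crossed pairing, chosen after seeing the data, called 49 genes in fibroblast-like, 14 in macrophage-like, 0 in neutrophil-like, 0 in keratinocyte-like, 40 in T and NK-like, 6 in dendritic-like and 22 in endothelial-like cells, with 1 member in the last.

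Other reversals were small or rested on few UMIs. DESeq2 gave 0.07 for Tgfbr2 in macrophage-like, −0.34 for Thbs1 in T and NK-like and 0.06 for Fst in endothelial-like cells. A minimum of 1000 UMIs gave −0.31 for Fst and −0.07 for Smad7 in macrophage-like cells, 0.01 for Tgfb1 in neutrophil-like and 0.04 for Tgfb3 in keratinocyte-like cells. Gating gave 0.19 for Tgfb1 in neutrophil-like and 0.04 for Tgfb3 in keratinocyte-like cells. Without doublet removal Smad7 in macrophage-like cells was −0.07, and Tgfb1 and Fst in dendritic-like cells were −0.02 and 0.08.

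With 1 library left out, differences in fibroblast-like cells spanned −0.45 to 0.08 for Tgfb1, −1.24 to 0.12 for Tgfb2, −0.53 to 0.05 for Tgfbr1, −0.05 to 0.13 for Fst, −0.06 to 0.68 for Ccn2 and −0.27 to 0.09 for Smad7. In macrophage-like cells they spanned −0.58 to 8.05 for Tgfbr2 (0 UMIs in uninjected 1), 0.00 to 1.09 for Inhba and −0.23 to 0.54 for Smad7. In neutrophil-like cells they spanned −0.29 to 0.15 for Tgfb1, −0.38 to 0.02 for Tgfbr1 and −0.12 to 0.99 for Tgfbr2. In keratinocyte-like cells they spanned −0.03 to 0.22 for Tgfb1, −0.26 to 0.20 for Tgfb3 and −0.18 to 0.05 for Fst. In T and NK-like cells they spanned −2.12 to 0.29 for Inhba, −2.85 to 1.32 for Fst and −1.94 to 2.97 for Thbs1. In dendritic-like cells they spanned −0.09 to 0.34 for Tgfb1, −0.23 to 1.08 for Tgfbr2 and −2.23 to 0.24 for Fst, and in endothelial-like cells −4.31 to 1.05 for Fst.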
